A study of Mus musculus with 3 samples.

Results

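The integrated stress response genes described here are 10 genes of the ATF4 pathway: Atf4, Atf5, Ddit3, Ppp1r15a, Ppp1r15b, Asns, Trib3, Chac1, Sesn2 and Ddit4. They were found by symbol and gene identifier in the transcript tables and joined by identifier to the gene tables, which hold 55536 genes. The symbols gave 11 gene identifiers, because Ddit3 is the name of a second, very short entry described below. All libraries belonged to 1 group. They are total RNA-seq libraries, prepared after removal of ribosomal RNA, of the cytosolic fraction of macrophages that were grown from bone marrow of C57BL/6J mice and given 100 ng/ml Lipid A for 10 minutes. Lipid A, the membrane anchor of lipopolysaccharide, is the ligand of the receptor TLR4. There were 3 biological replicates and no untreated cells, so each value is a level after stimulation and says nothing about induction. The labels give 1 donor identifier for all 3, leave sex and age uncollected, and leave it unsaid if the replicates were different animals or cultures. P-values therefore measure only the spread between these samples, which may be technical.

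In the integrated stress response, stress-sensing kinases phosphorylate the initiation factor eIF2, which lowers general protein synthesis while the mRNA of ATF4, a bZIP transcription factor, is translated more. Short upstream reading frames in the 5′ leader of Atf4 mRNA are what couples its translation to eIF2. ATF4 and its partners then raise transcription of genes for amino acid supply, redox control and feedback on the pathway. Macrophages are known to engage this pathway when amino acids are scarce or the endoplasmic reticulum is loaded. RNA levels such as those given here do not measure phosphorylation of eIF2 or translation.

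Replicate 1 was the shallowest library, with 33825547 estimated counts on genes, beside 54667365 for replicate 2 and 43176007 for replicate 3. The cells carried the markers of their label. Each library had at least 1 TPM of all 7 macrophage markers, whose means were 4970 ± 427 TPM for Lyz2, 716 ± 62.1 for Cd68, 289 ± 18.0 for Csf1r, 175 ± 24.1 for Adgre1 and 29.1 ± 9.90 for Itgam (SD, n = 3). TPM is a share of all transcripts of a library that allows for transcript length. Of the markers of other bone marrow lineages, S100a8 at 11.8 ± 2.86 TPM and S100a9 at 17.6 ± 4.01 TPM (SD, n = 3) reached 1 TPM in every library, and the erythroid markers and Ly6g had no count. The replicates differed in RNA that has no known place in the pathway. Top2a, a cell division gene, had 3.89, 4.43 and 13.5 TPM in replicates 1, 2 and 3, and the nuclear noncoding RNA Malat1 had 597, 383 and 304 TPM. All 3 nuclear noncoding RNAs read were highest in replicate 1 by TPM, by unlike margins. Neat1 had 41.7, 41.6 and 33.7 TPM and Tug1 18.2, 18.0 and 18.0 TPM. In TMM-normalised CPM, which are counts scaled to the size of each library, all 3 fell from replicate 1 to replicate 3. Malat1 had 3656, 2351 and 1884 CPM, Neat1 451.5, 279.1 and 207.9 CPM and Tug1 134.1, 128.6 and 120.9 CPM. Top2a and Malat1 were picked after their values were seen. What part these RNAs have in the differences between replicates given below was not tested. In bulk RNA, fewer cells with a transcript and less of it per cell cannot be told apart.

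The 10 genes covered a wide range of levels. Ddit3 and Atf4 were the most abundant, Ppp1r15b, Ppp1r15a and Atf5 came next, Sesn2 followed, Asns and Ddit4 were low, and Trib3 and Chac1 were below 1 TPM in every library. In that order of 10 genes, 6 of the 9 neighbouring pairs kept 1 order in every library, among them Atf4 above Ppp1r15b by 0.76 ± 0.07, Sesn2 above Asns by 1.24 ± 0.33 and Ddit4 above Trib3 by 0.77 ± 0.18 on the log2(TPM + 1) scale (SD, n = 3). The 3 pairs that did not lie within Ppp1r15b, Ppp1r15a and Atf5 and between Asns and Ddit4. Of the 10, 8 reached 1 TPM in every library, against 17.3% of all genes and 41.6% of protein-coding genes. The median TPM of the 10 was 8.80 ± 0.254 (SD, n = 3), beside a median of 7.13 TPM over the 9944 genes whose mean reached 1 TPM. These medians are of unlike sets, since the 10 include Trib3 and Chac1, whose means were below 1 TPM.

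**Figure D1:**
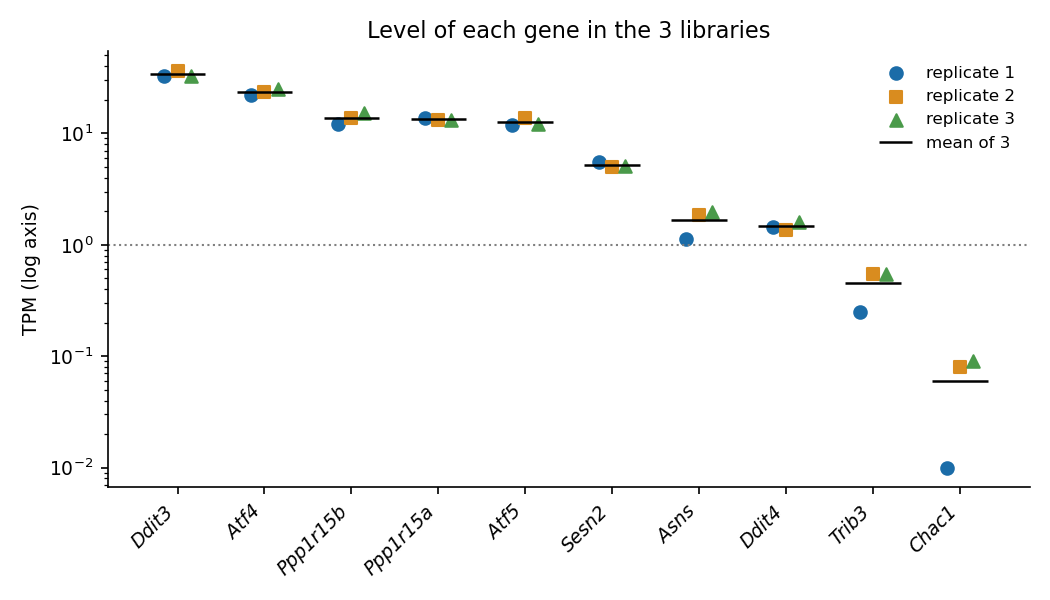
TPM of each gene in each library, on a log10 axis; points are the 3 replicates and the dotted line marks 1 TPM. Ddit3 sits highest between 32.6 and 36.6 TPM and Chac1 lowest between 0.01 and 0.09 TPM, and the points of Ppp1r15b, Ppp1r15a and Atf5 overlap.

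Among the transcription factors, Ddit3 was the highest. Ddit3 (ENSMUSG00000025408.15, mm10 chr10:127290774-127296288, plus strand) encodes CHOP, a bZIP factor that ATF4 induces and that is known for promoting cell death under lasting stress. It had 32.6, 36.6 and 32.9 TPM in replicates 1, 2 and 3, a mean of 34.0 ± 2.21 (SD, n = 3), which was above 87.9% of those 9944 genes. Replicate 2 was the high one, and its deposited TPM interval of 34.8 to 37.7 lay above those of replicate 1 at 30.4 to 34.0 and replicate 3 at 30.9 to 34.2. Those intervals come with the deposited tables and their level is not given in the sources used here.

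Atf4 (ENSMUSG00000042406.8, mm10 chr15:80255184-80257541, plus strand) had 22.3, 23.7 and 25.1 TPM, a mean of 23.7 ± 1.40 (SD, n = 3). Its libraries spread narrowly, with the lowest value in replicate 1. Its level was below that of Ddit3 in every library, by 0.50 ± 0.11 on the log2(TPM + 1) scale. That difference gave p = 0.25 in a sign-flip permutation test (exact, two-sided), the smallest that 3 libraries allow, so no order between 2 genes can pass 0.05 in this design. Atf5 (ENSMUSG00000038539.15, mm10 chr7:44812256-44816658, minus strand), a close relative of ATF4 that is known to act on mitochondrial protein quality, had 11.9, 13.6 and 12.1 TPM, a mean of 12.5 ± 0.947. It was lower than Atf4 in every library, by 0.87 ± 0.12 on the log2(TPM + 1) scale (SD, n = 3, exact sign-flip permutation p = 0.25), and replicate 2 was again the high library.

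The 5′ leaders of the 10 mRNAs are shown as a map, because upstream reading frames are the known means by which this pathway selects mRNAs for translation. A leader here is the part of the most abundant annotated transcript before the start codon, and an upstream start is any ATG in it. Positions count back from the A of the main start codon. Atf4 had a leader of 594 bases with 3 upstream starts: a frame of 36 codons beginning at -475, a frame of 3 codons beginning at -196, and a frame of 59 codons that begins at -97 and runs past the main start, in another frame, to 83 bases after it. Atf5 had the same layout with fewer starts. Its leader of 373 bases held a frame of 3 codons and a frame of 58 codons that begins at -121 and ends 56 bases after the main start.

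Ddit3 had a leader of 186 bases with 1 upstream frame of 34 codons, from -131 to -26, and a second ATG within that frame at -122. The annotation also lists a coding gene of 105 bases under the name Ddit3 (ENSMUSG00000116429.1, mm10 chr10:127290829-127293753), equal in length to that upstream frame and overlapping the Ddit3 exons over all its bases. It had 0, 0 and 0.94 estimated counts, so nearly every read of the shared bases was assigned to the longer gene. The labelled size range of the libraries, 250 to 400 bases, exceeds the length of this entry, so its count says little about its level. Ppp1r15a held 3 upstream frames, Ppp1r15b 3, Sesn2 1 and Asns 1 frame with 2 starts, and none of these reached the main start. Ddit4, Trib3 and Chac1 held no upstream ATG. In all, 7 of the 10 leaders held an upstream ATG, against 47% of 8868 leading transcripts, and 2 of 10 held a frame that overlaps the main start, against 15.3%. These counts describe annotated letters and no test was made of them.

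**Figure D2:**
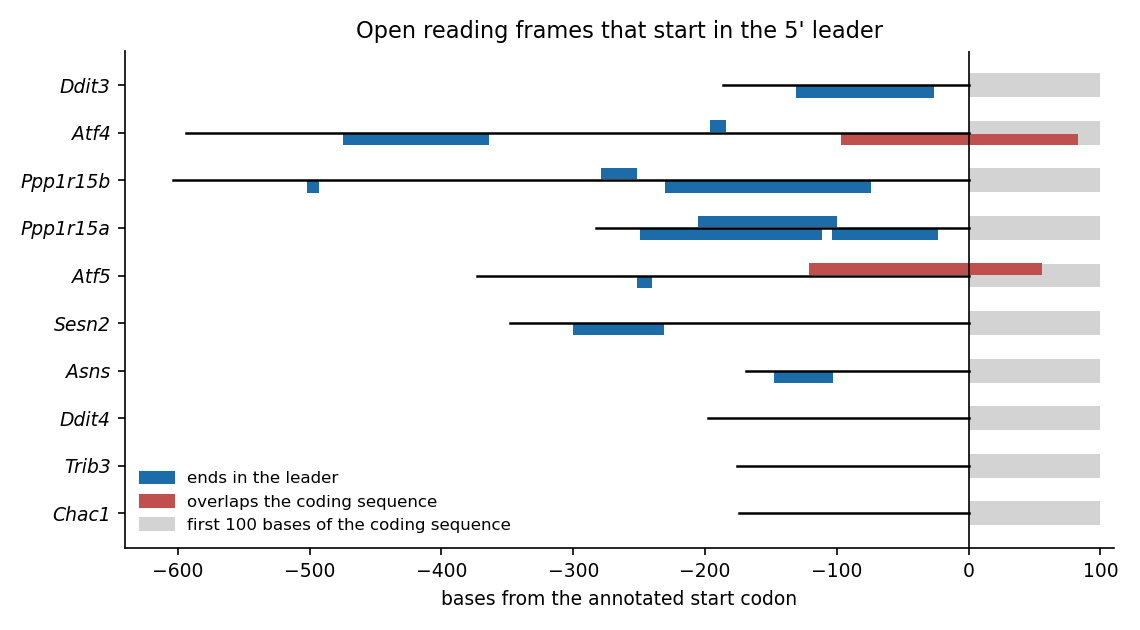
Map of the annotated 5′ leaders of the 10 leading transcripts, with distance from the main start codon in bases on the x axis and upstream ATG reading frames as coloured bars. The bars of Atf4 and Atf5 cross the main start, ending 83 and 56 bases after it, and the leaders of Ddit4, Trib3 and Chac1 hold no bar.

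The subunits that direct protein phosphatase 1 to eIF2 had nearly equal TPM in the first quantification. Ppp1r15a (ENSMUSG00000040435.12, mm10 chr7:45522916-45526268, minus strand) encodes GADD34, the stress-induced subunit that closes the feedback loop by removing phosphate from eIF2. It had 13.7, 13.2 and 13.1 TPM, a mean of 13.4 ± 0.335 (SD, n = 3). Ppp1r15b (ENSMUSG00000046062.5, mm10 chr1:133131143-133139783, plus strand) encodes CReP, its constitutive counterpart. It had 12.1, 13.8 and 15.1 TPM, a mean of 13.7 ± 1.51 (SD, n = 3). The order of the pair changed between libraries: Ppp1r15a was higher in replicate 1 and Ppp1r15b in replicates 2 and 3. In a second deposited quantification, made from the reads directly and rescaled over protein-coding genes, Ppp1r15b was higher in all 3 libraries, at 43.5, 50.7 and 53.0 rescaled TPM against 40.1, 39.9 and 37.5 for Ppp1r15a. In the first, the 389-base transcript Ppp1r15a-203 held 35.7% of the TPM of Ppp1r15a with 4.02% of its counts. In the first quantification, the difference of the pair, 0.02 ± 0.18 on the log2(TPM + 1) scale, was smaller than its spread (SD, n = 3, exact sign-flip permutation p = 0.75). Atf5 lay just below, and its difference from Ppp1r15a of 0.09 ± 0.12 was also within its spread (exact sign-flip permutation p = 0.5, n = 3).

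Sesn2, Ddit4, Asns, Trib3 and Chac1 each had a lower mean than the 5 genes above. Sesn2 (ENSMUSG00000028893.8, mm10 chr4:132492032-132510501, minus strand) encodes sestrin 2, a leucine sensor that restrains mTORC1. It had 5.53, 4.99 and 5.12 TPM, a mean of 5.21 ± 0.282 (SD, n = 3), and it stood below Atf5 in every library by 1.12 ± 0.16 on the log2(TPM + 1) scale. Ddit4 (ENSMUSG00000020108.4, mm10 chr10:59949669-59951834, minus strand) encodes REDD1, another restraint on mTORC1, and had 1.43, 1.35 and 1.60 TPM with a mean of 1.46 ± 0.128. The 3 deposited intervals of Ddit4, 1.19 to 1.65, 1.16 to 1.52 and 1.36 to 1.82 TPM, overlap one another.

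Asns (ENSMUSG00000029752.12, mm10 chr6:7675169-7693254, minus strand) encodes asparagine synthetase, a widely used readout of ATF4 activity. It had 125, 338 and 266 estimated counts, which gave 1.12, 1.86 and 1.98 TPM and a mean of 1.65 ± 0.466 (SD, n = 3). Replicate 1 was the low library and replicates 2 and 3 lay close together. The deposited intervals were 1.13 to 2.06, 1.83 to 2.56 and 1.96 to 2.87 TPM, and the TPM of replicate 1 lies just under its own interval. Asns and Ddit4 did not keep 1 order across libraries, with a difference of 0.09 ± 0.26 on the log2(TPM + 1) scale (SD, n = 3, exact sign-flip permutation p = 0.75).

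Trib3 (ENSMUSG00000032715.9, mm10 chr2:152337422-152344032, minus strand) encodes a pseudokinase that ATF4 and CHOP induce and that dampens ATF4 in turn. It had 29, 101 and 73 estimated counts and 0.25, 0.55 and 0.55 TPM, a mean of 0.450 ± 0.173 (SD, n = 3). Again replicate 1 was the low library. Chac1 (ENSMUSG00000027313.3, mm10 chr2:119351229-119354381, plus strand) encodes an enzyme that degrades glutathione and is among the targets most strongly induced by ATF4 in other cells. It had 1, 11 and 10 counts, with exact Poisson 95% intervals of 0.0253 to 5.57, 5.49 to 19.7 and 4.80 to 18.4 counts that cover counting error only. Its TPM was 0.01, 0.08 and 0.09, so at this depth its level is known only as a few reads in each library.

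Counts separated the libraries for most of the genes. A chi-square test of the counts against library sizes normalised by the TMM method, with Benjamini-Hochberg adjustment over the 13494 genes that summed to at least 30 counts, called 8 of the 9 genes tested, beside 50.1% of all genes. Deep genes are called more often: among genes that summed to at least 1000 counts the share was 58.6%, and the 6 genes of that depth were all called. The test asks whether counts differ by more than counting error between libraries, and it does not compare conditions. At the 2-fold level, none of the 8 genes whose mean reached 1 TPM differed between its highest and lowest library, beside 3.59% of all such genes. Trib3, at 2.20-fold, and Chac1 passed 2-fold below that level.

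The genes did not share 1 pattern across replicates. In TMM-normalised CPM, which are counts scaled to the size of each library, 5 of the 10 were lowest in replicate 1 (Atf4, Ppp1r15b, Asns, Trib3 and Chac1), 4 were lowest in replicate 3 (Ddit3, Ppp1r15a, Atf5 and Sesn2), and Ddit4 was lowest in replicate 2. Over all genes tested the shares lowest in replicates 1, 2 and 3 were 45.8%, 22.8% and 31.5%. Which library is low depends on the scale, since by TPM 7 of the 10 genes were lowest in replicate 1, 2 in replicate 2 and 1, Ppp1r15a, in replicate 3, beside 45.8%, 44.6% and 9.6% of the 9944 genes. Trib3 and Chac1, both among those 7, have means below 1 TPM and so are outside the 9944 genes. By TPM, 5 of the 10 were highest in replicate 3, 3 in replicate 2 and 2 in replicate 1, where Trib3, tied at 0.55 TPM in replicates 2 and 3, is counted for replicate 2. Among the 8 whose mean reached 1 TPM the counts were 4, 2 and 2, beside 66.1%, 10.6% and 23.3% of the 9944 genes. Of the 8 genes called, 4 were lowest in replicate 1, 0 in replicate 2 and 4 in replicate 3 by CPM, beside 50.4%, 18.8% and 30.8% of the 6765 genes called, so the count for replicate 1 is close to that of all called genes.

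By CPM, Asns and Trib3 had wider ranges between libraries than the transcription factors. Asns had 3.55, 6.40 and 6.19 CPM in replicates 1, 2 and 3, a range of 1.80-fold (chi-square test, Benjamini-Hochberg adjusted p = 1.37e-07). Trib3 had 0.825, 1.91 and 1.70 CPM, a range of 2.32-fold (adjusted p = 0.00068 in the chi-square test). Both were low in replicate 1 alone, the library of lowest depth. Ddit3 had 38.0, 46.4 and 37.5 CPM and stood out upwards in replicate 2 (adjusted p = 2.93e-12 in the chi-square test). Atf5 had the same order of libraries as Ddit3, highest in replicate 2, with 34.4, 41.1 and 33.4 CPM (adjusted p = 7.67e-10 in the chi-square test).

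The phosphatase subunits went apart. Ppp1r15b had 107, 121 and 123 CPM, lowest in replicate 1 (chi-square test, adjusted p = 1.46e-10), while Ppp1r15a had 37.7, 37.2 and 31.7 CPM, lowest in replicate 3 (chi-square test, adjusted p = 8.51e-06). Atf4 at 62.8, 69.4 and 66.7 CPM and Sesn2 at 33.8, 31.4 and 29.4 CPM passed with small ranges (chi-square test, adjusted p = 0.00271 and 0.00642). Atf4 was no longer called when libraries were scaled by total gene counts (adjusted p = 0.66). Ddit4 did not pass (chi-square test, adjusted p = 0.785), and Chac1 had too few counts to be tested. The calls lean on single libraries: without replicate 1 only 3 genes were called beside 27.5% of all genes, and Asns at an adjusted p of 0.829 and Trib3 at 0.632 were no longer among them. Without replicate 2 the count was 5, beside 42.2%, and Ddit3 at an adjusted p of 0.804 and Atf5 at 0.565 were lost.

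**Figure D3:**
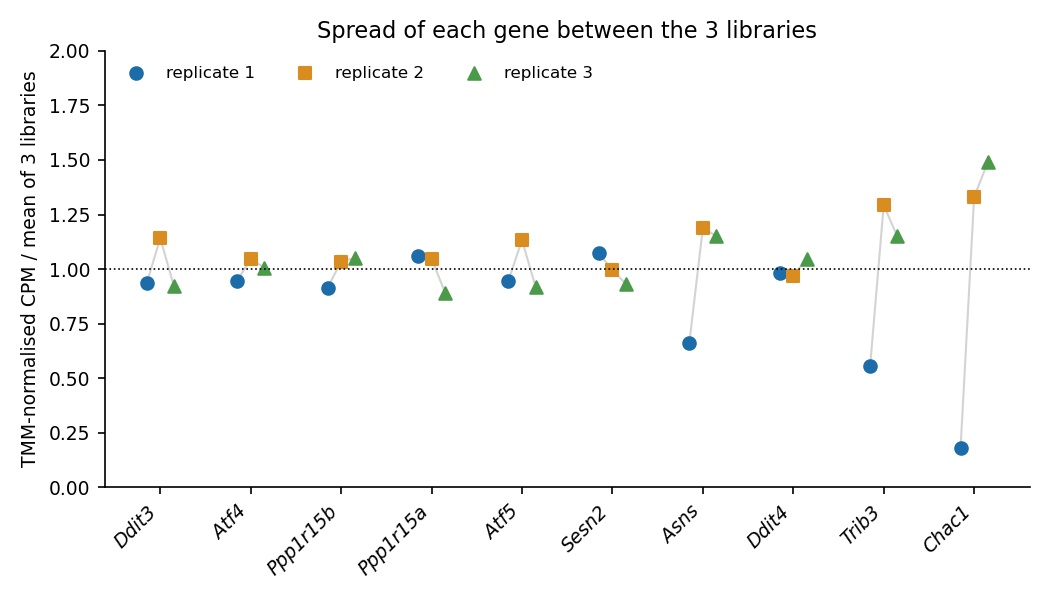
TMM-normalised CPM of each gene in each library, divided by its mean over the 3 libraries, on a linear axis from 0, with 1 point per replicate and the dotted line at 1. Replicate 1 lies far below the other replicates for Asns, Trib3 and Chac1, where counts are 125, 29 and 1, and the points of Ddit4, Sesn2 and Atf4 lie close to 1.

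Promoter sequence was read for the same genes, because ATF4 acts through a composite element, the CEBP-ATF response element, whose core is spelled TGATGNAA on one strand and TTNCATCA on the other. The windows are RefSeq's, build GRCm38.p6, from 250 bases before to 50 bases after a gene's start; 9 of the 10 genes had a window, and Ppp1r15b is named only. The core was found on either strand in the windows of Chac1, Trib3 and Asns, and in 3.97% of 32817 windows of the same length. The palindrome TGACGTCA, the CRE to which ATF and CREB factors bind and which does not overlap the first core in these windows, was found in the Ppp1r15a window and in 1.79% of all windows. Stretches around each match are given 5′ to 3′ on the strand of the gene, in lower case with the match in capitals.
Chac1, chr2:119351023-119351082, plus strand: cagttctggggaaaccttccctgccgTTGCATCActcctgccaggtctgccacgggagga
Trib3, chr2:152344028-152344057, minus strand: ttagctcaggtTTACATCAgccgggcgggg
Asns, chr6:7693210-7693258, minus strand: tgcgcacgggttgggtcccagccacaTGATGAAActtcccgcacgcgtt
Ppp1r15a, chr7:45526269-45526306, minus strand: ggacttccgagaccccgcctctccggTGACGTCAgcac
The match begins 193 bases before the RefSeq start in Chac1, 23 before it in Asns, 12 before it in Ppp1r15a and 14 after it in Trib3. RefSeq starts differ from the gene coordinates given above. By those coordinates the Asns match lies inside the gene and the Trib3 match lies before its start. A match is a description of letters and not of binding, and a window with no match says only that these letters are not in it. The 3 genes with the first core were also the ones furthest below the other libraries in replicate 1; they are the lowest genes with Ddit4, and no relation between the motif and the counts was tested.

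Most of the genes were expressed as 1 main transcript. The leading transcript held 96.8 ± 0.719% of the TPM of Atf4, 91.5 ± 1.90% of Ddit3, 98.5 ± 2.60% of Asns and 99.4 ± 1.07% of Trib3 (SD, n = 3), and Sesn2, Ddit4 and Chac1 have 1 annotated transcript each. In the second quantification the leading transcript of Trib3 held 83.6 ± 15.2%, and its retained-intron form Trib3-203 held 14.1%, from few counts. The retained-intron form Atf4-203, which keeps intronic sequence, held 3.18% of Atf4, with 3.99%, 2.91% and 2.63% in replicates 1, 2 and 3. The corresponding form Ddit3-202 held 1.77% of Ddit3, with 2.21%, 1.53% and 1.58%. Both forms had their highest share in replicate 1, and the cause was not tested. These low shares come from a cytosolic fraction, and no nuclear fraction is analysed here. Of the 7 annotated Asns transcripts, 5 had no count in any library.

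The other genes were split. Atf5 was divided between the coding transcripts ENSMUST00000047356.10 at 60.4 ± 6.80% and ENSMUST00000107893.8 at 39.6 ± 6.80% (SD, n = 3), and the share of the former was 55.5%, 57.5% and 68.2% in replicates 1, 2 and 3. Ppp1r15b was divided between the coding Ppp1r15b-201 at 60.7 ± 4.01% and the noncoding Ppp1r15b-202 at 39.3 ± 4.01%. In the second quantification Ppp1r15b-201 held 81.2 ± 3.35% of the TPM, so the division differed between the quantifications.

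The TPM and the counts of Ppp1r15a gave different shares. Its main transcript Ppp1r15a-201 of 2333 bases held 60.5 ± 2.68% of the gene's TPM (SD, n = 3) but 89.2 ± 5.10% of its counts, because the 389-base Ppp1r15a-203 held 35.7 ± 2.34% of the TPM with 4.02 ± 0.613% of the counts. In the second quantification Ppp1r15a-203 held 9.88 ± 5.46% of the TPM and Ppp1r15a-201 held 84.1 ± 8.15%. Its deposited interval in replicate 1, 11.7 to 15.7 TPM from 1325 counts, was wider than that of Ddit3, 30.4 to 34.0 TPM from 1338 counts.

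**Figure D4:**
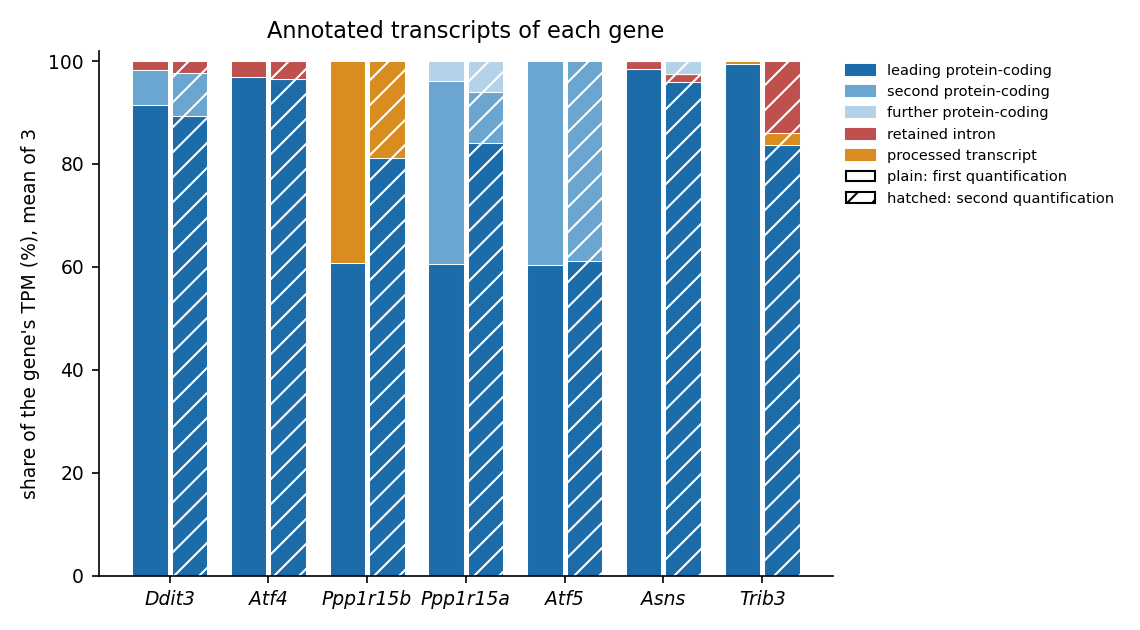
Share of each gene's TPM held by its annotated transcripts, in percent, mean over the 3 libraries, as stacked bars that start at 0. Sesn2, Ddit4 and Chac1, with a single annotated transcript each, have no bar. Plain bars show the first quantification and hatched bars the second. In the plain bars the leading transcript holds over 91% in Ddit3, Atf4, Asns and Trib3 and about 60% in Ppp1r15b, Ppp1r15a and Atf5. In the hatched bars it holds 89.3% in Ddit3, 96.6% in Atf4, 96.0% in Asns and 83.6% in Trib3. There it holds 81.2% in Ppp1r15b, 84.1% in Ppp1r15a and 61.1% in Atf5.

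Both quantifications gave levels within 2-fold of each other once put on 1 scale. As deposited, all 6 genes at 5 TPM or more in either differed at least 2-fold between them, beside 70.7% of all such genes. Protein-coding genes held 24.3%, 24.1% and 26.3% of the TPM in the first and 17.6%, 9.16% and 8.32% in the second. After rescaling each library over its protein-coding genes, none of the genes differed 2-fold, beside 8.05% of all genes. The largest remaining difference was that of Ppp1r15a, which was lower in the second by 0.46 on the log2 scale, followed by Ppp1r15b, lower by 0.16. The other genes lay within 0.10. Rescaled levels in the second quantification were 135, 151 and 123 for Ddit3 and 86.0, 93.6 and 92.7 for Atf4, in rescaled TPM of replicates 1, 2 and 3.

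Some genes overlap neighbours, and whether the counting used strand is not given in the sources used here. Atf5 shares 82 exon bases with Nup62, a nuclear pore gene on the opposite strand at 14.1, 14.9 and 16.3 TPM, and Ddit3 shares 68 with Mars, the gene of methionyl-tRNA synthetase, at 4.74, 4.40 and 5.62 TPM. Ppp1r15b shares 640 with the noncoding Gm26616 on the opposite strand, which had under 0.1 TPM in every library. Reads of such bases cannot be told apart without strand.

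Set beside their nearest relatives, several of these genes were the lesser-expressed copy. Sesn1, a sestrin regulated by p53, had 62.7, 60.1 and 64.9 TPM, and Sesn2 was lower by 3.36 ± 0.07 on the log2(TPM + 1) scale. Trib3 was lower than Trib1 by 1.29 ± 0.33 and Chac1 lower than Chac2, its constitutive relative, by 1.08 ± 0.12. Sesn2 was above Sesn3 by 0.88 ± 0.08, Ddit4 above Ddit4l by 1.21 ± 0.09 and Trib3 above Trib2 by 0.53 ± 0.18. Each order held in every library (SD, n = 3; exact sign-flip permutation p = 0.25, the smallest possible). These relatives were chosen by name.

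The wider pathway was described with 5 lists. All 8 kinases of eIF2 and their regulators reached 1 TPM in each library. Their median was 7.26 ± 0.186 TPM (SD, n = 3), and 4 of 8 were called between libraries, beside 50.1% of all genes. The highest were Impact, an inhibitor of GCN2 activation, at 17.8, 17.7 and 18.2 TPM, Eif2ak2, the gene of the double-stranded RNA sensor PKR, at 17.7, 15.8 and 16.3 TPM, and Dnajc3, an inhibitor of PKR and PERK, at 12.7, 13.4 and 15.6 TPM. The lowest were the kinase genes Eif2ak4, for the amino acid sensor GCN2, at 3.02, 3.01 and 2.97 TPM, and Eif2ak3, for the endoplasmic reticulum sensor PERK, at 3.77, 3.65 and 4.09 TPM. Dnajc3 was highest in replicate 3, and Eif2ak4 spread least of these 5.

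The list of eIF2, eIF2B and phosphatase subunits has 14 genes, among them Eif2a, Eif5 and Eif5b, which encode other initiation factors. All 14 also reached 1 TPM in each library, and the list median was 13.5 ± 1.34 TPM (SD, n = 3). Of the 14, 8 were called, beside 50.1% of all genes. The highest genes were Ppp1ca at 74.6, 73.8 and 84.5 TPM and Ppp1cc at 69.7, 63.6 and 64.7 TPM, which encode catalytic subunits of protein phosphatase 1, and the eIF2 subunit gene Eif2s3x at 31.0, 30.1 and 32.5 TPM. The other catalytic subunit gene of the list, Ppp1cb, was lower at 20.3 ± 0.949 TPM. The lowest genes were Eif2b3 at 1.80 ± 0.436 TPM and Eif2b4 at 3.49 ± 0.185 TPM, for subunits of the exchange factor eIF2B, while another of its subunit genes, Eif2b2, had 12.8 ± 2.64 TPM.

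Partners of ATF4 among bZIP factors were mostly abundant. Of 14, 13 reached 1 TPM in each library, the median was 17.6 ± 5.02 TPM (SD, n = 3), and 10 of 13 tested were called, beside 50.1% of all genes. Maf at 101 ± 5.48 TPM, Nfe2l2, the gene of the antioxidant regulator NRF2, at 79.2 ± 3.81 TPM and the stress-induced Atf3 at 74.3 ± 7.50 TPM were the highest, each above Atf4 and Ddit3. Fosl1, with 0, 0 and 0.15 TPM, and Cebpd at 1.33 ± 0.0404 TPM were the lowest. Fos, an immediate early gene, was the only one that differed 2-fold, at 32.0, 15.1 and 33.0 TPM, low in replicate 2.

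The amino acid and one-carbon targets had the lowest median of the 5 lists. Of 21 genes, 10 reached 1 TPM in each library, the list median was 1.07 ± 0.253 TPM (SD, n = 3), and 14 of 16 tested were called, beside 50.1% of all genes. Of the 14 called, 10 were lowest in replicate 1 by CPM, as Asns and Trib3 were, beside 50.4% of all called genes. The genes were chosen with earlier results known, so these counts are a description. Of the 14, 10 were highest in replicate 3 by CPM, beside 39.4% of all called genes. Replicate 3 is the library in which the division genes Top2a, at 13.5 TPM, and Mki67, at 9.62 TPM, were also highest; their part in these differences was not tested. Slc3a2, the shared chain of amino acid exchangers, had 112, 126 and 128 TPM, Got1, an aspartate aminotransferase, had 24.0, 22.6 and 23.2 TPM, and the glutamine carrier Slc38a2 had 6.22, 5.91 and 5.81 TPM. Among the genes of this list whose mean reached 1 TPM, the serine synthesis gene Psat1 was the only one that was called and past 2-fold, at 1.14, 1.34 and 2.60 TPM (chi-square test, adjusted p = 1.00e-21). Cth had no count and Bcat1 had 2. Below a mean of 1 TPM, 3 more genes were called and past 2-fold. Phgdh, which acts before Psat1 in serine synthesis, had 0.42, 0.74 and 0.99 TPM, and the amino acid carrier Slc1a4 had 0.08, 0.14 and 0.18 TPM. Slc7a11, the cystine carrier, went the other way with 0.55, 0.36 and 0.27 TPM. Mthfd2, a mitochondrial one-carbon enzyme picked after its values were seen, had 1.49, 1.99 and 2.66 TPM.

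The list named other targets of ATF4 and CHOP also holds Sesn1, Sesn3, Ddit4l, Trib1, Trib2 and Chac2. These were listed as relatives of the genes described here, so the values below are not those of targets alone. Of its 22 genes, 16 reached 1 TPM in each library and the list median was 6.40 ± 0.471 TPM (SD, n = 3). Of 17 tested, 11 were called, beside 50.1% of all genes. Sqstm1, an autophagy receptor, at 128 ± 8.77 TPM, Sesn1 and the autophagosome gene Map1lc3b at 34.6 ± 2.15 TPM were the highest. The hormone gene Fgf21 had no count and Trib2 had 1 count over the 3 libraries.

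**Figure D5:**
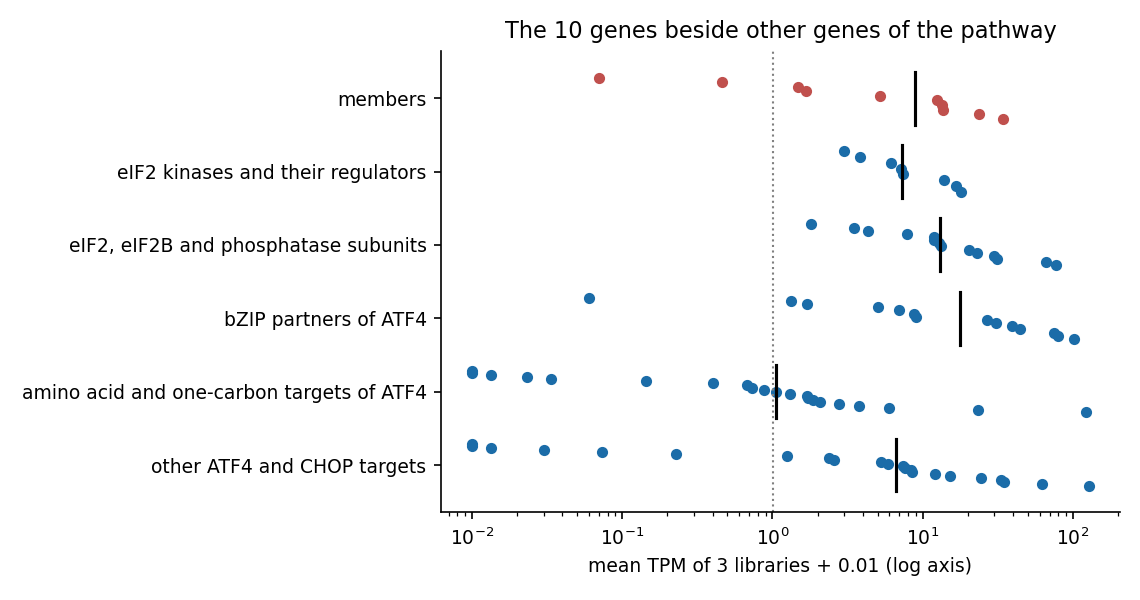
Mean TPM over the 3 libraries of the 10 genes and of the genes of 5 pathway lists, with 0.01 added and on a log10 axis, 1 point per gene, with a black bar at each median and the dotted line at 1 TPM. The bar of the amino acid and one-carbon targets lies lowest, near 1 TPM, and that of the bZIP partners, among them Maf at 101 TPM, lies highest.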

How the data were processed

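Each of the 3 libraries came with a gene table and a transcript table, in which the authors deposited expected counts, TPM, posterior standard deviations and TPM intervals, and with a second transcript table of deposited estimated counts and TPM. Per the file headers and labels the assembly is mm10 with annotation M21; the quantifiers were not given in the sources used. The deposited posterior standard deviations served only in 1 alternative. No column of per-sample values was left unused (0 columns). Spike-in and other entries that name no gene held 0.449%, 0.203% and 0.141% of the counts and entered neither library sizes nor tests.

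Levels were compared as log2(TPM + 1), which understates differences of low genes, by sign-flip permutation (exact, two-sided). Counts were rounded and tested by chi-square against TMM effective library sizes (edgeR 4.0.16) where a gene summed to at least 30 counts, and p-values were adjusted by Benjamini-Hochberg over all such genes with a threshold of 0.05; DESeq2 1.42.0 size factors were an alternative. Leaders came from the M21 transcripts and promoter windows from RefSeq. The procedures were tested on simulated data. Scripts ran under R 4.3.3 and Python 3.11.15 with pandas 2.3.3, scipy 1.17.1, numpy 2.4.6 and matplotlib 3.10.9.

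The 10 genes and the lists were chosen with earlier results of these data known. Of each list, up to 3 genes with the highest and up to 2 with the lowest mean TPM were named, with any gene called 2-fold between libraries, and markers by a fixed set. Rescaling both quantifications over protein-coding genes, and CPM for the order of libraries, were added after values were seen. Gcn1 matched no symbol of the annotation, and Gcn1l1 was matched in its place.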

Additional observations from a re-analysis of the deposited data

How the results depend on the processing

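The 8 genes at 1 TPM or more in every library stayed at 8 without any 1 replicate, and 6 to 8 adjacent pairs kept 1 order. The count depends on the scale: it was 9 rescaled over protein-coding genes and 6 in the second quantification as deposited. Rescaled, Trib3 had 1.03, 2.29 and 2.10 TPM in replicates 1, 2 and 3. No share over all genes is given for these 2 scales. On other scales the median of the 10 genes was 35.5 TPM rescaled over protein-coding genes, 3.50 TPM in the second quantification and 29.6 TPM there rescaled (the last added after values were seen); without 1 replicate it was 8.65 to 8.89. For eIF2 kinases, eIF2 and phosphatase subunits, bZIP partners, amino acid targets and other targets, in that order, list medians were 29.3, 54.4, 70.2, 4.29 and 25.7 TPM rescaled and 3.20, 6.99, 9.60, 0.457 and 3.49 TPM in the second quantification, and 7.16 to 7.34, 13.1 to 14.3, 15.3 to 20.3, 0.97 to 1.21 and 6.15 to 6.62 TPM without 1 replicate. The posterior mean TPM gave 7.52 for the kinases and 1.58 for the amino acid targets, of which 4 reached 1 TPM in every library in the second quantification and 10 to 11 without 1 replicate. Genes at 2-fold between libraries, 0 in the deposited TPM, were 2 with no filter on low values and 1 rescaled. They were 0 in the deposited TPM of the first quantification without any 1 replicate, and 4 in the second quantification as deposited. No share over all genes is given for these other settings. In the second quantification as deposited, protein-coding genes held 17.6%, 9.16% and 8.32% of the TPM in replicates 1, 2 and 3. Genes highest in replicates 1, 2 and 3 were 2, 3 and 5 by TPM, with Trib3, tied in replicates 2 and 3, counted for replicate 2. They were 2, 5 and 3 by CPM and rescaled TPM and 9, 1 and 0 in the second quantification as deposited. No share over all genes is given on these other scales, and the protein-coding share of the second quantification was itself highest in replicate 1. By TPM of the first quantification, the counts without 1 replicate were 2 to 3, 4 to 7 and 6 to 8. The counting test called 3, 5 and 6 genes without replicate 1, 2 or 3 in turn, beside 27.5%, 42.2% and 35.5% of all genes. Without replicate 1, Atf4 (adjusted p = 0.254), Ppp1r15b (0.593) and Sesn2 (0.199) were also lost; without replicate 2, Atf4 (0.0686), Atf5 (0.565) and Ddit3 (0.804); without replicate 3, Sesn2 (0.085) and Ppp1r15a (0.749). Sesn2 had an adjusted p of 0.092 in the second quantification. The median share of the leading transcript, 97.4%, was 93.2% in the second quantification and 96.8% to 98.2% without 1 replicate. That median includes Sesn2, Ddit4 and Chac1, whose single annotated transcript fixes their share at 100% in every setting. Genes that differed 2-fold between quantifications, 6 as deposited, were 2 to 6 without 1 replicate and 0 rescaled. The cause of these changes was not tested, except that fewer libraries give the counting test less to compare. Depth limits Chac1 and Trib3 most. No paired analysis was possible because the series holds 1 group.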
